A study of Homo sapiens with 6 samples.

Results

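Ubiquitin-conjugating (E2) enzymes were examined in human MDA-MB-231 tumors grown in mice and given a single dose of radiation. The genes were taken by name from a table of 60606 genes: UBE2, a letter and optional digits, without pseudogene names ending in P and a number and without UBE2C, UBE2S, UBE2T and UBE2L6. The rule found 32 genes, of which 28 had a mean over the tumors of at least 1 TPM (a transcript's share of the library, corrected for gene length and scaled to a fixed total) and are called measured. The irradiated group was 3 tumors that received 10 Gy of local X-rays at a volume near 800 mm3 and were collected 3 days later. The control group was 3 non-irradiated tumors, for which the labels give no volume or time. All tumors of both groups came from MDA-MB-231 cells, a triple-negative breast cancer line, injected with Matrigel under the skin of the left flank of NSG mice, which lack T, B and NK cells. The host still has blood vessels, fibroblasts and myeloid cells, all of them of mouse. The labels do not say whether each tumor came from a separate mouse, so that p-values measure only the spread between these samples.

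Ubiquitin reaches its substrates in 3 steps. An E1 enzyme activates it, an E2 enzyme carries it as a thioester on a cysteine, and an E3 ligase brings the loaded E2 to the substrate; the E2 often sets which lysine of ubiquitin the next ubiquitin is joined to, and so the shape of the chain. K48-linked chains mark proteins for the proteasome, K63-linked chains serve in signalling and in the tolerance of damaged DNA, and a few E2 enzymes carry related proteins such as NEDD8 in place of ubiquitin.

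The part of an E2 that carries ubiquitin can be read in its coding sequence. In most E2 enzymes a histidine, proline and asparagine stand shortly before the cysteine that holds ubiquitin, and a search of the coding sequences (GENCODE 29 transcripts) for these 3 codons followed by a cysteine codon within the next 10 codons found a match in 16 of the 28 measured genes. In the stretches printed here, 5′ to 3′ on the coding strand, capitals mark the codons of the triplet and of the cysteine. They are shown for the E2 with K63-linked chains, 2 E2 enzymes with K48-linked chains, a NEDD8 carrier and the 2 closest relatives in the set, all of which return in the results.
UBE2N: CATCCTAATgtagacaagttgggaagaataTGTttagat
UBE2G1: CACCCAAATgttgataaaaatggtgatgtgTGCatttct
UBE2K: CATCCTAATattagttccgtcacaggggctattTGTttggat
UBE2M: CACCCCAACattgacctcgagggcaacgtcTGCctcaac
UBE2D2: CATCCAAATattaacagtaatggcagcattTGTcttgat
UBE2D3: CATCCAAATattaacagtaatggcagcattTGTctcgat

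The gap between the triplet and the cysteine was 7 codons in these genes apart from UBE2K, where it was 8, as it was in UBE2H. The 12 genes without a match were UBE2E1, UBE2E2, UBE2E3, UBE2J1, UBE2J2, UBE2O, UBE2Q1, UBE2Q2, UBE2V1, UBE2V2, UBE2W and UBE2Z. UBE2V1 and UBE2V2 are the so-called UEV proteins, E2 folds that lack the catalytic cysteine and act only together with UBE2N; for the others the search says only that these codons do not stand in this arrangement. UBE2D2 and UBE2D3 matched over 86.0% of their aligned coding bases and shared an exact run of 80 bases, so that reads could be divided between them in more than 1 way. UBE2V1 and UBE2V2 matched over 84.9%, with a longest shared run of 31 bases, and UBE2A and UBE2B over 80.4%, with 25 bases. In the remaining families of like-named genes the match was lower, down to 62.1% between UBE2G1 and UBE2G2.

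Radiation was followed by small differences in this gene family, most of them downward, and a single gene passed the test. UBE2V2, a partner of UBE2N in making K63-linked chains, fell in irradiated tumors to 55.2% of its control mean. No measured E2 gene was called higher and 1 of 28 was called lower (limma, adjusted p under 0.05 over all 14140 genes tested), where 1.37% of all genes tested were called higher, 1.61% lower and 2.98% in either direction. At an unadjusted p under 0.05 there were 6 of the 28, all lower, where 11.5% of all genes tested were lower and 20.5% passed in either direction. Of the 28 genes, 23 had a log2 fold change below 0, which is 82.1% of them against 55.7% of all genes tested, and their median log2 fold change was −0.21, with −0.06 over all genes tested. The 3 irradiated values lay below all 3 control values for 8 of the 28 genes, or 28.6%, against 15.0% of all genes tested, and above them for 1 gene, or 3.57%, against 11.6%. Overlap between groups is judged throughout on TPM as deposited, for the E2 genes and for all genes tested. Fold changes throughout are on the log2(TPM + 1) scale, irradiated minus control, which understates differences of genes at low levels.

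**Figure D1:**
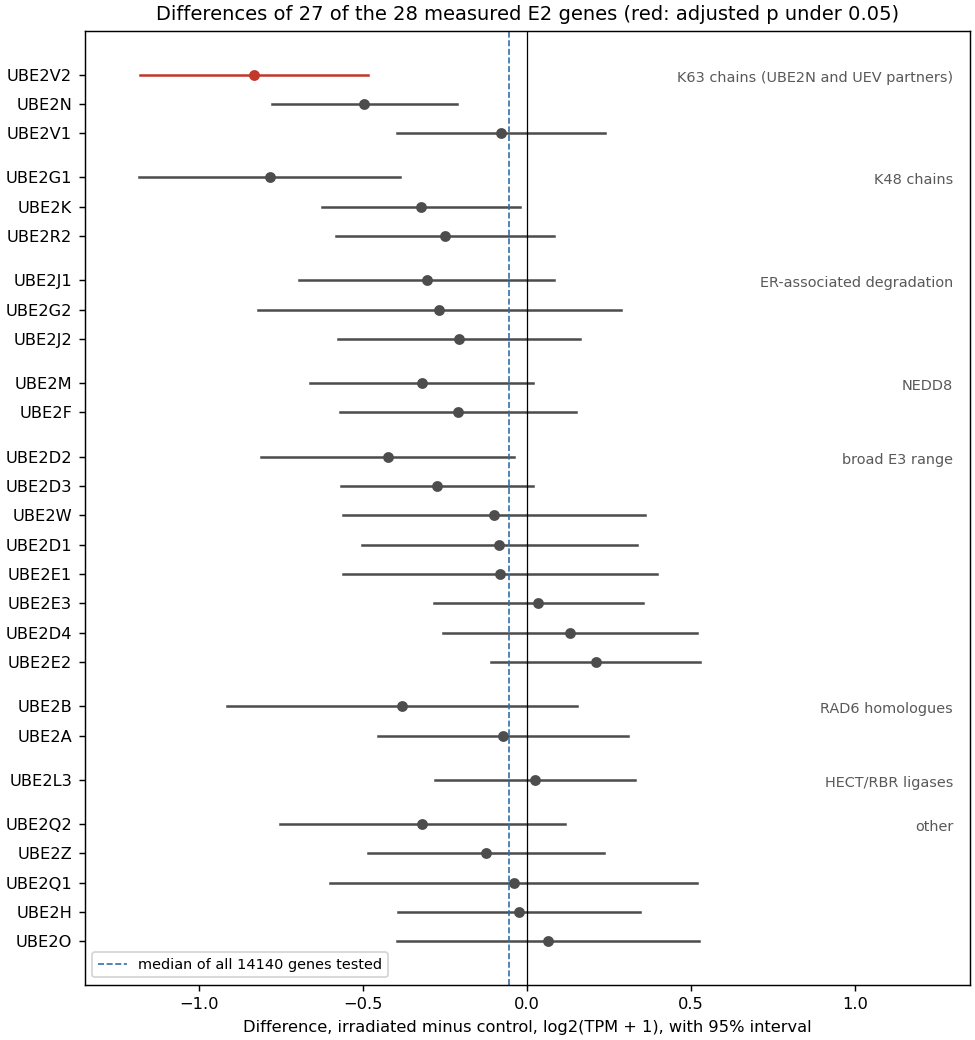
Log2 fold change on the log2(TPM + 1) scale, irradiated minus control, with its 95% interval for 27 of the 28 measured E2 genes, grouped by role; the dashed line is the median of all 14140 genes tested. UBE2V2, in red, is the gene with an adjusted p under 0.05, and 22 of the 27 points lie left of 0.

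As a sum, the E2 genes took 1759, 1722 and 1692 TPM in the 3 irradiated tumors, against 2005, 1962 and 2143 TPM in the 3 control tumors. The groups did not overlap, with 1724 ± 33.3 TPM in irradiated and 2037 ± 94.5 TPM in control tumors (SD, n = 3 each). This depends on the scaling. Scaling by medians of ratios, an alternative used below, divides each tumor by a factor. The factors were 0.947, 0.998 and 0.995 for irradiated tumors 1, 2 and 3, and 1.14, 0.906 and 1.03 for control tumors 1, 2 and 3. Divided by them, the sum of irradiated tumor 1 would stand above that of control tumor 1. Levels of single E2 genes spread widely. Over all 6 tumors UBE2D3 averaged 185 TPM, UBE2V1 179 TPM and UBE2M 172 TPM at the top, and UBE2Q2 averaged 9.69 TPM and UBE2W 6.18 TPM at the bottom.

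**Figure D2:**
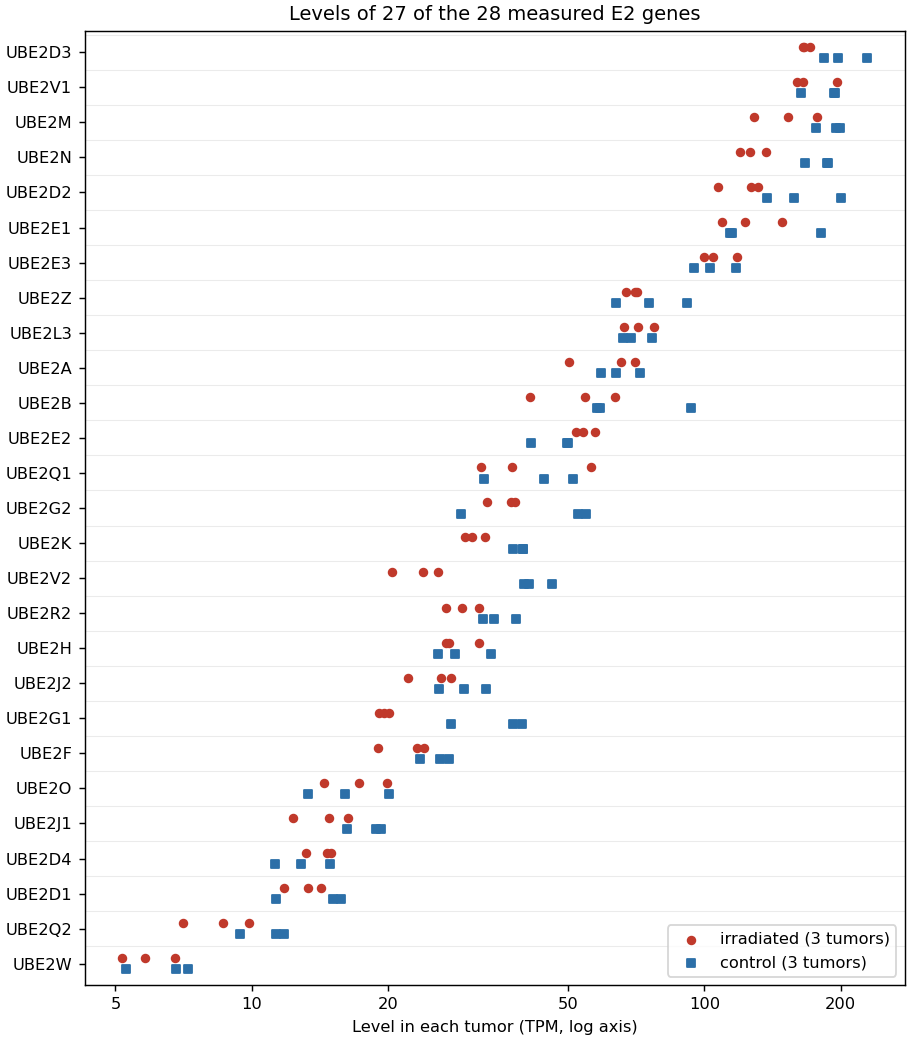
Level in each tumor, in TPM on a log axis, for 27 of the 28 measured E2 genes in the order of their mean over all 6 tumors, with irradiated tumors as circles and control tumors as squares. Levels run from about 5 TPM for UBE2W to over 200 TPM for UBE2D3 and UBE2D2 in control tumors, and UBE2V2, UBE2G1 and UBE2N show a clear gap between the groups.

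The 4 genes below the threshold on level were UBE2U, UBE2L2, UBE2L4 and UBE2L5. UBE2U and UBE2L2 were listed at 0 in every tumor. UBE2L4 was at 0.57 TPM in control tumor 2 and at 0 in the others, and UBE2L5 was at 0.03 TPM in irradiated tumor 3 and control tumor 1. UBE2L2 and UBE2L4 are processed pseudogenes in GENCODE 29 in spite of their plain names.

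UBE2N and its UEV partners are the enzymes of K63-linked chains. UBE2N carries the ubiquitin and the UEV protein holds the acceptor, with UBE2V1 best known in NF-κB signalling through TRAF6 and UBE2V2 in the modification of PCNA when DNA damage is bypassed. UBE2V2 (ENSG00000169139, chromosome 8, 48008400 to 48064708, plus strand, GRCh38) had 25.7, 23.9 and 20.4 TPM in irradiated tumors, against 46.1, 40.9 and 39.9 TPM in control tumors. Every irradiated tumor lay far below the lowest control tumor, with a log2 fold change of −0.83, a 95% interval of −1.18 to −0.49 and an adjusted p of 0.0292 in limma. The call did not survive the loss of most single tumors: without any 1 tumor other than control tumor 2 the adjusted p was between 0.0929 and 0.106, although the log2 fold change stayed between −0.91 and −0.74. It was 0.0656 without a filter on low values, 0.0546 without a trend in the variance and 0.123 without control tumor 2 and irradiated tumor 2.

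UBE2N (ENSG00000177889, chromosome 12, 93405673 to 93442262, minus strand) had 126, 120 and 137 TPM in irradiated tumors, against 188, 167 and 187 TPM in control tumors. The groups did not overlap, but the log2 fold change of −0.50 (95% interval −0.78 to −0.21) missed the threshold (limma adjusted p = 0.0740). Exons of UBE2N overlap those of NUDT4 on the other strand, and the use of strand is not given in the sources used here. Exons of UBE2A, UBE2D3, UBE2D4, UBE2E3, UBE2L3 and UBE2Q1 also overlap a gene on the opposite strand, and those of UBE2W a gene on its own strand, so that their values are less certain. UBE2V1 (ENSG00000244687, chromosome 20, 50081124 to 50115959, minus strand) had 160, 165 and 196 TPM in irradiated tumors, against 193, 164 and 195 TPM in control tumors. These values overlapped fully, and limma gave −0.08 on the log2 scale, with an adjusted p of 0.781 and a 95% interval of −0.40 to 0.24, an interval that does not reach the fold change measured for UBE2V2.

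The 2 UEV partners thus stood in a different proportion in the 2 groups. UBE2V2 made up 13.9, 12.6 and 9.41% of the summed TPM of UBE2V1 and UBE2V2 in irradiated tumors, against 19.3, 20.0 and 17.0% in control tumors. That is 12.0 ± 2.30% in irradiated and 18.8 ± 1.57% in control tumors (SD, n = 3 each), without overlap. The ratio of UBE2V1 to UBE2V2 was 6.21, 6.92 and 9.63 in irradiated tumors, against 4.18, 3.99 and 4.88 in control tumors. UBE2N, set against the sum of its partners, stood at 0.681, 0.633 and 0.631 in irradiated tumors, against 0.786, 0.817 and 0.797 in control tumors. These ratios were computed after the single genes had been seen and were given no test.

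**Figure D3:**
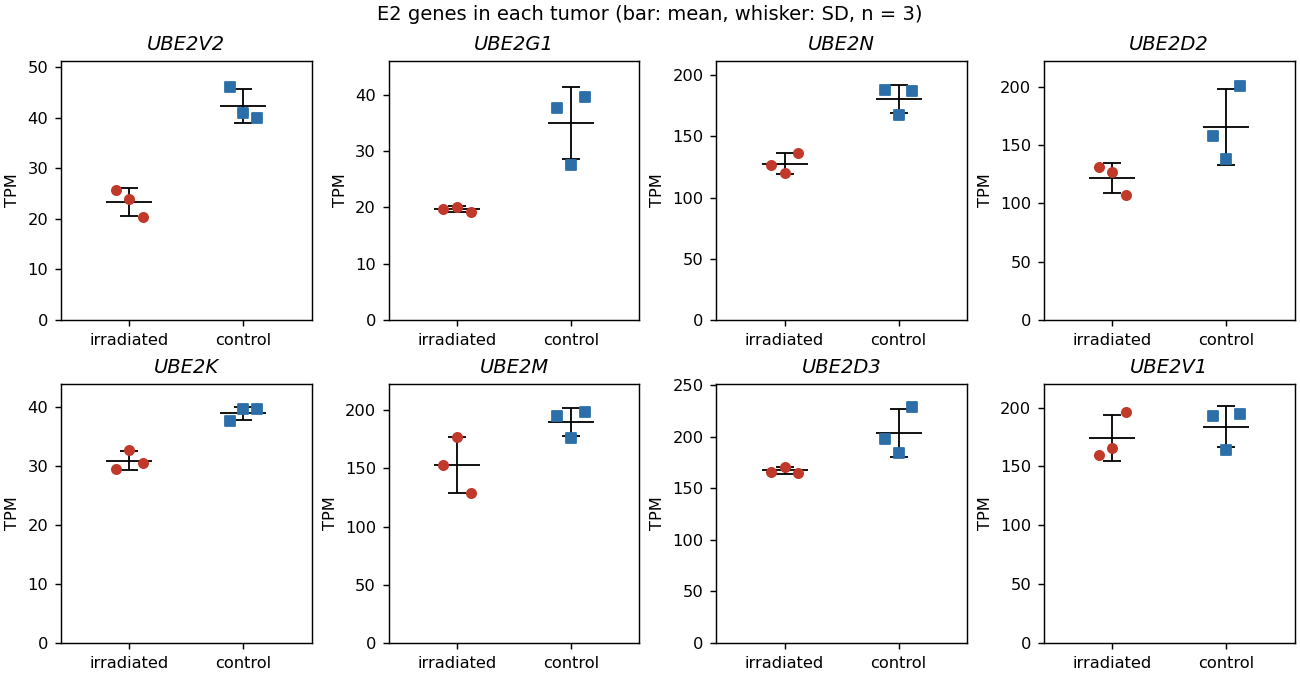
Level in TPM in each tumor, irradiated left and control right, with the mean and SD (n = 3), for 8 E2 genes. UBE2V2, UBE2G1, UBE2N, UBE2D2, UBE2K and UBE2D3 show no overlap between the groups, while UBE2M overlaps by a narrow margin and UBE2V1 overlaps fully.

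UBE2G1, UBE2K and UBE2R2, listed here as builders of K48-linked chains, were lower in every irradiated tumor than in any control tumor, where 15.0% of all genes tested were. Scaled by medians of ratios, the groups would overlap for UBE2R2 but not for UBE2G1 and UBE2K. None of the 3 was called, against 1.61% of all genes tested called lower. The pattern depends on the grouping, in which each E2 gene was placed in a single group. UBE2G2, placed with endoplasmic reticulum-associated degradation, overlapped between the groups (log2 fold change −0.27, limma adjusted p = 0.561). CDC34, which builds such chains but lies outside the naming rule, overlapped between the groups, with a log2 fold change of −0.16 (limma adjusted p = 0.590). UBE2G1 (ENSG00000132388, chromosome 17, 4269259 to 4366628, minus strand), which extends chains on substrates of cullin-RING ligases, had 19.6, 20.1 and 19.1 TPM in irradiated tumors, against 37.7, 27.6 and 39.6 TPM in control tumors. The irradiated values were tightly grouped and control tumor 2 was the control nearest to them. With a log2 fold change of −0.79 and a 95% interval of −1.18 to −0.39, its limma adjusted p was 0.0536, close to the threshold on the side that was not called. UBE2G1 was called in 7 of 19 alternative ways of processing, and without control tumor 2 its adjusted p was 0.0232.

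UBE2K (ENSG00000078140, chromosome 4, 39698044 to 39782792, plus strand), which lengthens chains that other E2 enzymes have begun, had 29.6, 32.8 and 30.6 TPM in irradiated tumors, against 37.8, 39.7 and 39.7 TPM in control tumors. The groups did not overlap, but the log2 fold change of −0.33 had a 95% interval of −0.63 to −0.02 and an adjusted p of 0.212 in limma. UBE2R2, a close relative of CDC34 that serves cullin ligases, averaged 29.2 ± 2.46 TPM in irradiated and 35.0 ± 3.00 TPM in control tumors (SD, n = 3 each), with a log2 fold change of −0.25 (limma adjusted p = 0.369).

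The sequence just before the start of UBE2G1 is shown. That gene had the largest difference after UBE2V2, and its upstream sequence could be read without entering an exon. In RefSeq (GRCh38.p14) the stretch at chr17:4366676-4366825, minus strand, reads as follows, with GGGCGG, the GC box bound by SP1 and related factors, in capitals.
UBE2G1 promoter: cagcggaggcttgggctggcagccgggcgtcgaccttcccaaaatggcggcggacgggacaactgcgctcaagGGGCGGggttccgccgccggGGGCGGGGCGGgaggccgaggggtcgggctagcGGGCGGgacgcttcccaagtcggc
It holds 4 copies of the box in 150 bases, counting overlapping copies, and 76% of its bases are G or C. RefSeq promoters of 300 bases, 250 before to 50 after the start, were matched by symbol for 22 of the 28 measured genes. GGGCGG, on either strand, was in 19 of the 22, or 86.4%, against 45.0% of all 35116 promoters. CCAAT was in 22.7% of them, against 34.6% of all promoters, and CCGGAAG, the ETS motif, in 22.7%, against 10.3%. No match was found in these windows for TGACGTCA (1.85% of all promoters), GGCGGGAA (3.16%), CACGTG (7.26%) or TATAAA (11.5%). These are counts of letters and show no binding, and the 35116 promoters were not restricted to genes measured in these tumors.

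NEDD8 has E2 enzymes of its own, UBE2M and UBE2F, and both had log2 fold changes below 0 with neither called. UBE2M (ENSG00000130725, chromosome 19, 58555712 to 58558960, minus strand), which loads NEDD8 onto most cullins, had 153, 177 and 129 TPM in irradiated tumors, against 195, 176 and 199 TPM in control tumors. Irradiated tumor 2 stood level with control tumor 2, with a log2 fold change of −0.32, a 95% interval of −0.66 to 0.02 and a limma adjusted p of 0.264. UBE2F, the NEDD8 carrier for cullin 5, averaged 22.1 ± 2.69 TPM in irradiated and 25.6 ± 1.96 TPM in control tumors (SD, n = 3 each; limma adjusted p = 0.480). UBE2M and UBE2F together summed to 175 ± 21.7 TPM in irradiated and 216 ± 10.9 TPM in control tumors, without overlap. Scaled by medians of ratios, the sums of the 2 groups would overlap.

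The UBE2D and UBE2E families and UBE2W work with many E3 ligases and often place the first ubiquitin on a substrate. None of the 8 was called, and their median log2 fold change was −0.08. UBE2D2 (ENSG00000131508, chromosome 5, 139526431 to 139628433, plus strand) had 131, 127 and 107 TPM in irradiated tumors, against 158, 138 and 201 TPM in control tumors. UBE2D3 (ENSG00000109332, chromosome 4, 102794383 to 102868896, minus strand) had 166, 171 and 165 TPM in irradiated tumors, against 197, 184 and 229 TPM in control tumors. Both genes were lower in every irradiated tumor than in any control tumor, with log2 fold changes of −0.43 for UBE2D2 (95% interval −0.81 to −0.04, limma adjusted p = 0.202) and −0.28 for UBE2D3 (95% interval −0.57 to 0.02, limma adjusted p = 0.267). Scaled by medians of ratios, the groups would overlap for UBE2D3.

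Reads that fit more than 1 UBE2D gene make the single values uncertain, and the sum, being of length-corrected values, also depends in part on how they were divided. The 4 UBE2D genes summed to 326, 324 and 299 TPM in irradiated tumors, against 385, 350 and 452 TPM in control tumors, without overlap. Scaled by medians of ratios, these sums would overlap. UBE2D2 and UBE2D3 supplied most of the sum in every tumor. UBE2D4, a minor member, took 4.53 ± 0.421% of the sum in irradiated and 3.35 ± 0.746% in control tumors, also without overlap, while its own level overlapped between the groups (log2 fold change 0.13, limma adjusted p = 0.695). The UBE2E family summed to 289 ± 18.5 TPM in irradiated and 289 ± 52.0 TPM in control tumors. Within it, UBE2E2 was the one measured E2 gene whose irradiated values all lay above the control values, with 57.2, 53.8 and 52.1 TPM in irradiated tumors, against 41.3, 49.7 and 50.0 TPM in control tumors. Scaled by medians of ratios, these values would overlap. The log2 fold change of UBE2E2, 0.21, was not called (95% interval −0.11 to 0.53, limma adjusted p = 0.433).

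The E2 enzymes of endoplasmic reticulum-associated degradation, which remove misfolded secretory proteins, did not pass the test. UBE2J1 and UBE2J2 are anchored in the membrane of the organelle and UBE2G2 is recruited there by membrane-bound ligases. UBE2J1 averaged 14.5 ± 2.01 TPM in irradiated and 18.1 ± 1.64 TPM in control tumors, and UBE2J2 averaged 25.3 ± 2.81 TPM in irradiated and 29.4 ± 3.49 TPM in control tumors (SD, n = 3 each). UBE2G2 had 33.1, 38.1 and 37.3 TPM in irradiated tumors, against 52.4, 28.9 and 54.7 TPM in control tumors, where control tumor 2 stood below every other tumor. The log2 fold changes of these 3 genes were −0.21 to −0.31 and all groups overlapped. Within the pair of UBE2G genes, UBE2G1 took 35.2 ± 1.78% of the summed TPM in irradiated and 44.2 ± 3.97% in control tumors, without overlap.

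UBE2A and UBE2B are the human homologues of yeast RAD6 and act with RAD18 on PCNA at stalled replication forks and with RNF20 and RNF40 on histone H2B. UBE2A had 70.3, 65.6 and 50.1 TPM in irradiated tumors, against 71.9, 63.6 and 59.0 TPM in control tumors. UBE2B had 63.5, 54.3 and 41.2 TPM in irradiated tumors, against 58.9, 93.6 and 57.9 TPM in control tumors. Both genes overlapped between the groups, irradiated tumor 3 was the lowest of all 6 tumors for each, and without control tumor 2 the log2 fold change of UBE2B was −0.16. The log2 fold changes were −0.07 for UBE2A (95% interval −0.46 to 0.31) and −0.38 for UBE2B (95% interval −0.92 to 0.15), with limma adjusted p-values of 0.839 and 0.393.

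The remaining E2 genes lay near 0 for the most part. UBE2L3, which passes ubiquitin to ligases of the HECT and RBR classes, averaged 71.7 ± 5.42 TPM in irradiated and 70.6 ± 5.43 TPM in control tumors (SD, n = 3 each), with a log2 fold change of 0.02 and a 95% interval of −0.28 to 0.33. UBE2H, the partner of the CTLH ligase, UBE2O, which joins E2 and E3 activity in 1 protein, UBE2Q1 and UBE2Z, which is loaded by the E1 enzyme UBA6, had log2 fold changes of −0.13 to 0.06. UBE2Q2 averaged 8.53 ± 1.41 TPM in irradiated and 10.9 ± 1.24 TPM in control tumors, with a log2 fold change of −0.32 (limma adjusted p = 0.378). None of these 6 genes was called, and the groups overlapped for each.

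The tumors of a group did not vary alike. Over the 28 measured genes, the median distance of a tumor from the mean of the other two of its group was 0.10, 0.12 and 0.18 on the log2 scale for irradiated tumors 1, 2 and 3, and 0.17, 0.21 and 0.25 for control tumors 1, 2 and 3. Control tumor 3 was the highest of its group for 14 of the 28 genes and control tumor 2 the lowest for 13. Across all genes, control tumor 2 also stood apart on the second principal component, which held 19.1% of the variance, and ribosomal protein genes took 27.0% of its total TPM, against 19.9% to 22.3% in the other tumors. The first component, with 40.4%, separated irradiated from control tumors. Leaving out control tumor 2 gave 3 called E2 genes, UBE2G1, UBE2N and UBE2V2, all lower, and leaving out any other single tumor gave 0. Calls also rose over all 14140 genes tested without control tumor 2. There 469 were called lower and 200 higher, against 227 and 194 with all tumors.

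**Figure D4:**
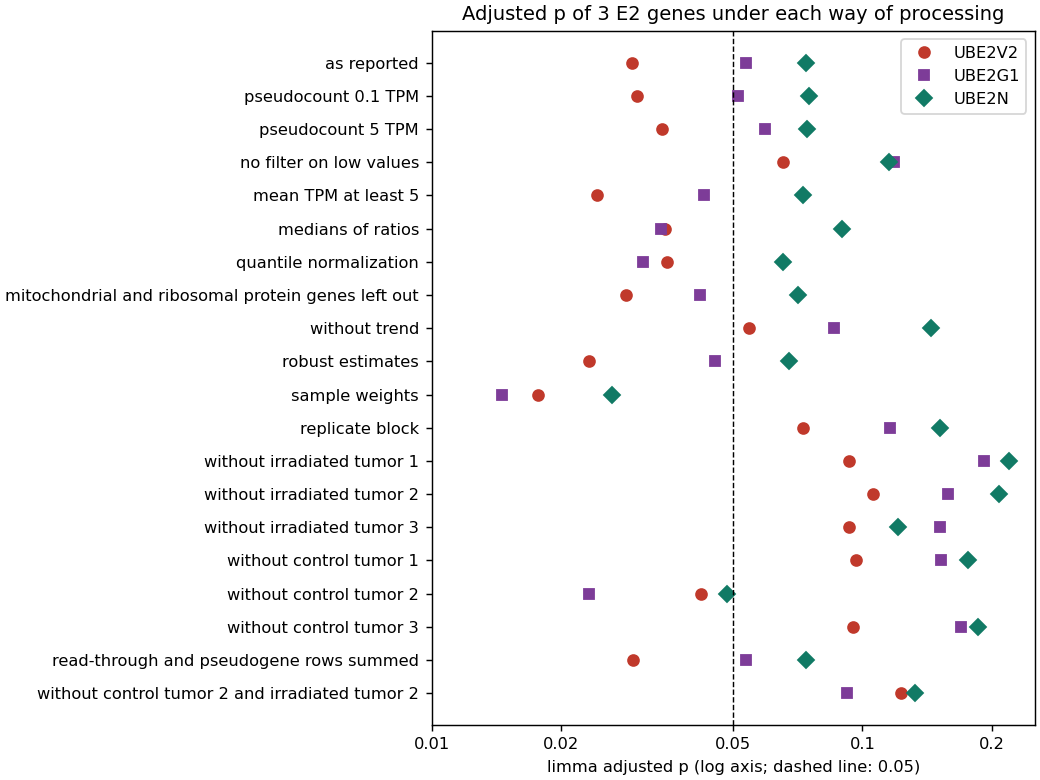
Adjusted p in limma for UBE2V2, UBE2G1 and UBE2N as reported and under 19 other ways of processing the table, on a log axis with a dashed line at 0.05. UBE2V2 lies left of the line in 10 of the 19, UBE2G1 in 7 and UBE2N in 2, and all 3 move right when a tumor other than control tumor 2 is left out.

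Read-through transcripts, which join an E2 gene to its neighbour, showed larger differences than the E2 genes they contain. They were looked at after their values had been seen and do not belong to the set. PEDS1-UBE2V1 had 9.07, 8.84 and 8.90 TPM in irradiated tumors, against 25.0, 16.7 and 24.0 TPM in control tumors. It fell by 1.18 on the log2 scale (95% interval −1.62 to −0.75, limma adjusted p = 0.0205), while PEDS1, the upstream neighbour, had a log2 fold change of 0.15 (limma adjusted p = 0.605). UBE2F-SCLY had 2.05, 1.79 and 3.60 TPM in irradiated tumors, against 9.39, 6.90 and 6.24 TPM in control tumors. It fell by 1.31 on the log2 scale (95% interval −1.91 to −0.70, limma adjusted p = 0.0411), and SCLY had a log2 fold change of −0.23 (limma adjusted p = 0.643). No irradiated value of either read-through gene reached the lowest control value. Under the alternatives that kept their rows, PEDS1-UBE2V1 was called in 10 of 18 and UBE2F-SCLY in 8 of 17.

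The share of each read-through in its pair differed in the same way. PEDS1-UBE2V1 made up 4.93 ± 0.532% of its sum with UBE2V1 in irradiated and 10.6 ± 1.16% in control tumors, and UBE2F-SCLY made up 9.91 ± 2.69% of its sum with UBE2F in irradiated and 22.7 ± 5.12% in control tumors (SD, n = 3 each). Each read-through shares exons with its E2 gene on the same strand, so that the division of reads between the 2 rows is uncertain. The sums, which as length-corrected values also depend in part on that division, were 183 ± 19.6 TPM in irradiated and 206 ± 22.0 TPM in control tumors for UBE2V1, with overlap, and 24.6 ± 3.47 TPM in irradiated and 33.2 ± 0.973 TPM in control tumors for UBE2F, without overlap. With read-through and pseudogene rows added to each E2 gene, the log2 fold changes were −0.17 for UBE2V1 and −0.40 for UBE2F, and neither was called (limma adjusted p = 0.519 and 0.189).

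**Figure D5:**
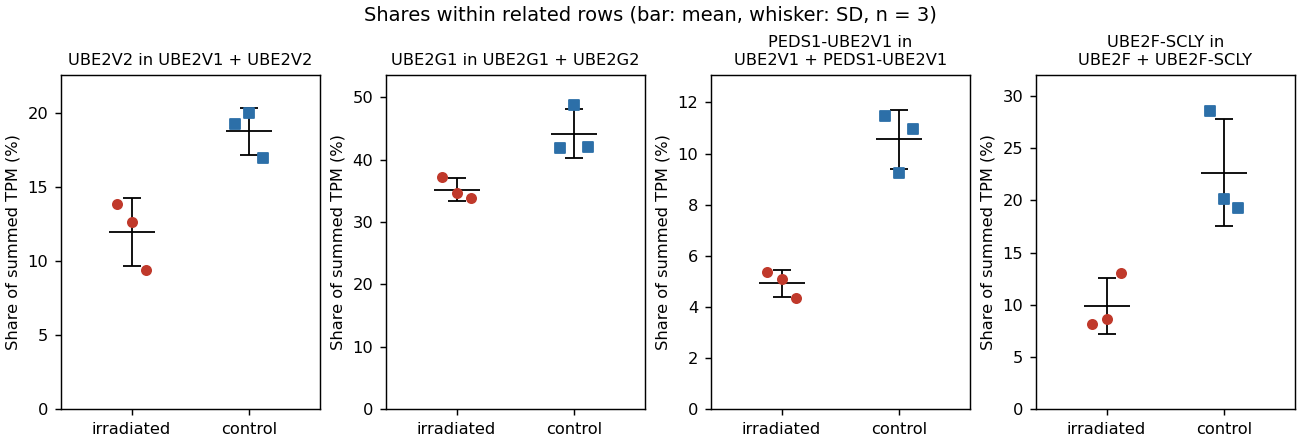
Share of summed TPM, in percent, in each tumor, irradiated left and control right, with the mean and SD (n = 3), for UBE2V2 among the 2 UEV genes, UBE2G1 among the 2 UBE2G genes and the 2 read-through genes in their pairs. In all 4 panels every irradiated tumor lies below every control tumor, and the widest gap in proportion is that of the read-through shares.

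The genes before and after the E2 step moved in both directions. Of 10 E1 genes, 1 was called lower and none higher, with a median log2 fold change of −0.05; over all genes tested 1.61% were called lower and 1.37% higher, with a median of −0.06. It was NAE1, a subunit of the E1 enzyme for NEDD8, with 23.4, 23.8 and 21.5 TPM in irradiated tumors, against 50.2, 34.1 and 43.7 TPM in control tumors. The groups were well apart, and NAE1 fell by 0.85 on the log2 scale (95% interval −1.25 to −0.46, limma adjusted p = 0.0413). Of 8 genes for ubiquitin, NEDD8 and SUMO, 1 was called higher, against 1.37% of all genes tested, and none lower, against 1.61%, with a median of −0.14. With lists this short, a single called gene says little about the list. It was UBB, a stress-inducible polyubiquitin gene, with 2793, 2931 and 2959 TPM in irradiated tumors, against 1684, 1863 and 2131 TPM in control tumors. UBB rose by 0.62 on the log2 scale (95% interval 0.33 to 0.91, limma adjusted p = 0.0421), in contrast to RPS27A, a ubiquitin-ribosomal fusion gene, with −0.49 (limma adjusted p = 0.0985), and SUMO2, with −0.52 (limma adjusted p = 0.0775), which were not called.

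Among E3 genes, those of cullin-RING ligases were the ones with the highest share of non-overlapping groups. Of 19 such genes, 1 was called lower and none higher, against 1.61% and 1.37% of all genes tested. The median log2 fold change was −0.27, and 10 of 19, or 52.6%, were lower in every irradiated tumor than in any control tumor, against 15.0% of all genes tested. Besides cullins and their subunits, the list held DCUN1D genes, ARIH1 and ARIH2. Of these, ARIH1, DCUN1D1 and DCUN1D5 were among the non-overlapping genes. The called gene was ARIH1, an RBR ligase that starts chains on substrates of NEDD8-bound cullins together with UBE2L3, with 15.7, 14.5 and 15.4 TPM in irradiated tumors, against 34.5, 24.3 and 35.0 TPM in control tumors. ARIH1 fell by 0.98 on the log2 scale (95% interval −1.39 to −0.56, limma adjusted p = 0.0307). ARIH1 was counted with the cullin-RING genes and in no other list. No gene was called in the 6 other lists of ligases: 14 measured genes of degradation at the endoplasmic reticulum (median 0.04), 13 of the DNA damage response and RAD6 partners (−0.24), 9 of K63-linked signalling (−0.02), 17 HECT and further RBR ligases (−0.35), 8 SUMO ligases (−0.06) and 11 subunits of the CTLH complex (−0.10). E2-fold genes without a UBE2 name, such as CDC34, TSG101 and ATG3, likewise had 0 of 8 called, with a median of −0.11. NAE1 and ARIH1 were called in 10 of 19 alternatives and UBB in 7 of 19.

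Of the 4 UBE2 genes outside the set, UBE2L6 and UBE2S had larger differences than any measured gene of the set, in opposite directions. UBE2L6, the E2 for the interferon-induced modifier ISG15, rose to 278 ± 79.6 TPM in irradiated tumors, against 94.8 ± 22.3 TPM in control tumors (log2 fold change 1.53, limma adjusted p = 0.0159). UBE2S, which elongates chains for the anaphase-promoting complex, fell to 162 ± 39.4 TPM in irradiated tumors, against 456 ± 86.9 TPM in control tumors (log2 fold change −1.50, limma adjusted p = 0.0132). UBE2L6 was called in 13 of 19 alternatives and UBE2S in 14 of 19. UBE2T and UBE2C were not called, with log2 fold changes of −0.60 (limma adjusted p = 0.0952) and −0.02 (limma adjusted p = 0.957).

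Markers of other cell types differed between the groups alongside these genes. Of 15 skeletal muscle markers, 12 were measured and 3 were called lower, against 1.61% of all genes tested. All 12 had a log2 fold change below 0. The summed level of the list was 2.47 to 148 TPM in irradiated and 207 to 559 TPM in control tumors. Of 11 fibroblast markers, 8 were measured and 3 called lower, with sums of 152 to 252 TPM in irradiated and 511 to 1076 TPM in control tumors. Of these 8, 7 had a log2 fold change below 0 and 1 went the other way, at 0.95, without being called. No marker of these 2 lists was at 0 in every tumor. Macrophage markers, with 4 of 10 measured and C1QA and C1QB at 0 throughout, summed to 108 to 208 TPM in irradiated and 90.5 to 109 TPM in control tumors, endothelial markers, with 2 of 8 measured, to 4.77 to 22.3 TPM in irradiated and 4.10 to 8.74 TPM in control tumors, and adipocyte markers, with 0 of 6 measured and ADIPOQ and LEP at 0, to at most 4.04 TPM. All 10 genes typical of MDA-MB-231 cells, such as VIM and CD44, were measured, and summed to 12813 to 13753 TPM in irradiated and 10539 to 13184 TPM in control tumors. The sum is weighted to the most abundant of them. By single genes, 6 had a log2 fold change below 0 and 4 above, with a median of −0.25, and none was called. The part of muscle or stromal RNA in the E2 values was not tested. In bulk tumors, fewer cells of a type and less RNA per cell cannot be told apart. The host cells were of mouse, whereas the values are for human genes on hg38. Values in the marker rows could come from mouse reads assigned to human genes or from the tumor cells themselves. These sources cannot be told apart here and were not tested.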

How the data were processed

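Expression was read from 1 table of TPM deposited by the authors, given to 2 decimals, with 1 column for each of 6 tumors. Per the submitters' processing notes, HISAT2, StringTie and RSEM were used with build hg38; no versions are named there, and the annotation release, the strand setting and the treatment of reads from mouse cells were not given in the sources used here. TPM keep no depth, so the number of reads behind a value is unknown, and neither counting intervals nor count tests were used. They are shares of a total, so that a rise in abundant genes lowers others.

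Genes with a mean of 1 TPM or more, 14140 of 60606, were fitted on log2(TPM + 1) with limma 3.58.1 in R 4.3.3 (lmFit, eBayes with trend), group as sole term, two-sided, and Benjamini-Hochberg adjustment over every gene fitted; a call is an adjusted p under 0.05. The script was tested on simulated data with 200 of 14140 genes changed in each of 5 draws. It called 38% of 2-fold and 81% of 4-fold changes, and 4.66% of calls were false. Values per tumor are given for called members, for those with the smallest p until 8 are reached, for the 3 highest levels and for relatives of a called member; called genes are named from the other ubiquitin lists. UBE2E2, UBE2A, UBE2B, UBE2G2, the ratios between genes and the read-through genes were added after their values were seen. 1 measured member is included in the counts, sums and medians and is not reported here by itself. Members and lists were chosen with earlier results of these data known. Coordinates and transcripts come from GENCODE 29 (GRCh38, the assembly of hg38), where all 32 members were found by identifier and 58396 of the table's identifiers in all; it need not be the authors' release. Promoters come from RefSeq GRCh38.p14. Alternatives changed the pseudocount, the filter, the scaling, the variance estimate, sample weights, a replicate block and the tumors used.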

Additional observations from a re-analysis of the deposited data

How the results depend on the processing

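The number of E2 genes called lower, 1 as reported, was 0 without a filter on low values and 0 without the trend in the variance; it was 2 where genes needed 5 TPM on average, 2 with scaling by medians of ratios, 2 with quantile normalization, 2 with mitochondrial and ribosomal protein genes left out and 2 with robust estimates (UBE2G1 and UBE2V2 each time), and 3 with sample weights. Leaving out 1 tumor at a time gave 0 to 3. Without control tumor 2 and irradiated tumor 2 together, a setting chosen after seeing the data, it was 0. No E2 gene was called higher under any of the 19 alternatives, and the median log2 fold change of the measured genes stayed between −0.24 and −0.15. The median over all genes tested lay between −0.14 and 0.01; without both second tumors it was −0.14, beside −0.18 for the E2 genes. Genes called over all genes, 421 as reported, numbered 133 without a filter, 279 without the trend, 1064 with sample weights, 66 without control tumor 2 and irradiated tumor 2, and 107 to 669 with 1 tumor left out, the highest without control tumor 2. The cause was not tested.

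Tumor numbers are shared by the groups, but the labels tie no irradiated tumor to a control tumor. Deviations of same-numbered tumors from their group means correlated at −0.06 to −0.04, those of other pairs at −0.03 to 0.08. Such values cannot exclude a pairing, because deviations from a mean of 3 tumors sum to 0 within each group. With the replicate block, 0 E2 genes were called lower (UBE2V2 adjusted p = 0.0729) and 185 genes were called over all genes. Of 532 gene results under alternatives, 514 kept their side of the threshold, 9 lost the call, 9 gained it, and 0 called values changed sign. Direction changed under some alternative for the uncalled UBE2A, UBE2D1, UBE2E1, UBE2E3, UBE2H, UBE2L3, UBE2O, UBE2Q1, UBE2W and UBE2Z. With 3 tumors a group and unknown depth, a p that misses the threshold does not show that levels were alike.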
